A study of Mus musculus with 8 samples.

Results

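The genes described here encode heat shock proteins and folding chaperones, the proteins that help other proteins reach and keep their shape. They were chosen by name from a table of RNA-seq read counts. The names begin with Hspa, Hspb, Hspd, Hspe, Hsph, Hsp90, Dnaj or Pdia, or are those of the chaperonin subunits Cct2 to Cct8, and P4hb, Hsf1, Hsf2, Bag3, Calr and Canx were added. Hspbap1 and Hspbp1, which share the first letters but are no heat shock proteins, were left out. The rule found 78 of the 12823 genes of the table and used no measured value.

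HSP70 proteins bind unfolded stretches of other proteins and release them in a cycle driven by ATP, in which J proteins (the Dnaj genes) start ATP hydrolysis and HSP110 proteins exchange the nucleotide. HSP90 and the CCT ring act later on chosen clients, such as kinases, actin and tubulin, while mitochondria and the endoplasmic reticulum (ER) hold chaperone sets of their own. Heat shock factor 1 (Hsf1) switches on the cytosolic set under protein-folding stress, the unfolded protein response does so for the ER set, and leukemia cells, which make protein at a high rate, express both sets.

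The cells were mouse bone marrow leukemia cells that express MLL-AF9, a fusion of the KMT2A and MLLT3 genes that causes acute myeloid leukemia (AML), together with green fluorescent protein (GFP). MLL-AF9 was brought into bone marrow progenitors with an MSCV retrovirus, so its level in the cells need not be that of a natural fusion gene. New AML (4 libraries) stands for newly generated GFP+ cells taken from sublethally irradiated recipients, and aggressive AML (4 libraries) for GFP+ cells obtained after 5 serial transplantations of that leukemia, which the study's methods place in non-irradiated recipients. The study describes the recipients of both groups as young adult wild-type C57BL/6 mice, male in this experiment. Libraries are numbered as biological replicates, but nothing says that each came from its own mouse, so the p-values measure the spread between these libraries, which may in part be technical. The comparison set the leukemia before the serial transplantations against the leukemia after them. Recipient irradiation and time of harvest differed along with the transplantations, so their effects cannot be told apart.

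Total counts lay between 7805544 and 9697777 per library, and values are given in CPM, a gene's count scaled to a fixed total per library. The leukemia marker list, which holds Ptprc, Kit, Mpo, Hoxa9 and Meis1, summed to 7697 to 8806 CPM in new AML and 7630 to 9591 CPM in aggressive AML, but 5 of its 12 genes differed: Csf1r and Itgam fell by 1.70 and 0.61 on the log2 scale, and Kit, Elane and Meis1 rose by 0.65, 0.52 and 0.45. The Y-linked gene Ddx3y was present at 85.7 to 104 CPM in the new AML libraries and had 0 counts in each aggressive AML library, which allows at most 3 counts per library, and a different origin of the cells or loss of the Y chromosome cannot be told apart from the transplantations. Neutrophil markers moved with the groups: 10 of 14 fell, their summed level was 459 to 671 CPM in new AML and 249.8 to 315 CPM in aggressive AML, and none was at 0. Erythroid markers summed to 142 to 229 CPM and 122 to 156 CPM, with 3 of 9 tested genes lower. Much of these sums was Tfrc, with means of 99.2 CPM in new AML and 97.7 CPM in aggressive AML. All 9 tested genes had a log2 fold change below 0, with a median of -1.02. Macrophage markers summed to 209 to 252 CPM and 156 to 208 CPM, with 1 of 4 tested genes (Adgre1) lower. Over all tested genes 10.2% were called lower. The part of these other transcripts in the chaperone results was not tested, and in RNA from many cells, fewer cells of a type and less RNA per cell cannot be told apart.

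The 78 chaperone genes held 1.96% to 2.35% of all counts in new AML and 2.01% to 2.13% in aggressive AML. In the edgeR quasi-likelihood test, 15 of the 76 that passed the filter on low counts differed between the groups at an adjusted p under 0.05, 6 higher and 9 lower in aggressive AML. These 15 are 19.7% of the tested members, against 18.4% of all 12494 tested genes, so the share by itself is no result about chaperones. Genes called higher made up 8.15% of all tested genes and genes called lower 10.2%. The median log2 fold change, aggressive over new AML, was -0.04 for the members and 0.00 for all tested genes, and the median absolute change was 0.14 and 0.19. In 18 members (23.7%) all libraries of a group lay on 1 side of those of the other, against 21.8% of all tested genes. Without new AML replicate 2, the number of members called lower was 5.

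**Figure D1:**
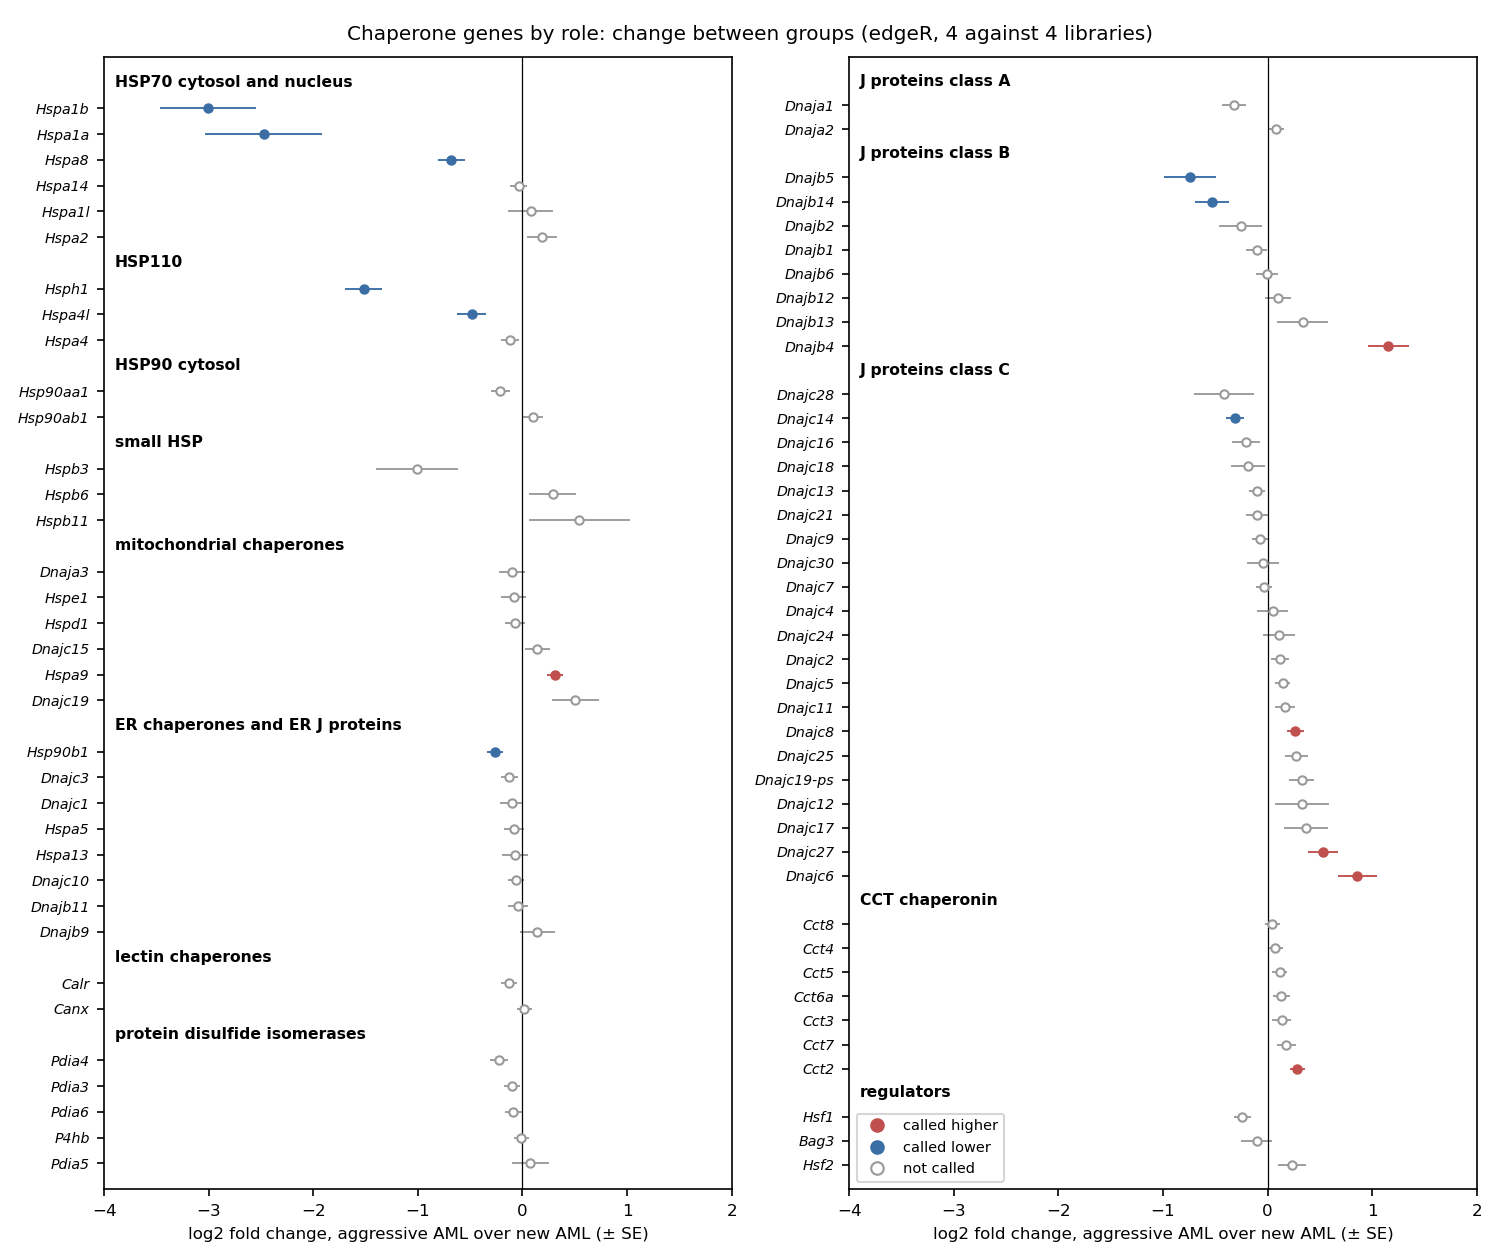
Log2 fold change of each of the 76 tested chaperone genes, aggressive AML over new AML, on the horizontal axis, with bars for the standard error of the edgeR fit over 4 against 4 libraries, grouped by role; filled points passed an adjusted p of 0.05. Hspa1b and Hspa1a lie farthest to the left at -3.01 and -2.48, Dnajb4 farthest to the right at 1.16, and most other genes lie close to 0.

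The cytosolic HSP70 and HSP110 genes held the largest falls. Of the 6 tested cytosolic HSP70 genes 3 fell and none rose, but 2 of these 3, Hspa1a and Hspa1b, are near-identical copies. Their falls are not independent of each other. Of the 3 HSP110 genes 2 fell. Over all tested genes 10.2% were called lower. The group medians were -0.36 and -0.49 on the log2 scale. For HSP70 no gene lay near the median, which falls between Hspa8 at -0.68 and Hspa14 at -0.04. The stress-inducible HSP70 genes Hspa1a and Hspa1b, which stay low until cells are stressed, showed the widest gap between groups. Hspa1b (chr17:34956429-34959238, minus strand, RefSeq on GRCm38.p6) measured 23.3, 20.8, 57.3 and 9.03 CPM in new AML replicates 1 to 4, and 2.29, 5.54, 3.11 and 2.73 CPM in aggressive AML. Hspa1a (chr17:34969359-34972156, minus strand) measured 11.6, 6.90, 31.5 and 2.45 CPM in new AML, and 2.77, 2.36, 2.33 and 1.94 CPM in aggressive AML. New AML replicate 3 was the highest library for both genes and replicate 4 the lowest of its group. The groups did not overlap for Hspa1b, while for Hspa1a new AML replicate 4 lay within the range of aggressive AML. Hspa1b fell by 3.01 on the log2 scale (SE 0.46, edgeR adjusted p = 0.000349), an 8.04-fold lower level, and Hspa1a fell by 2.48 (SE 0.56, adjusted p = 0.00663).

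The copies Hspa1a and Hspa1b are nearly identical. Of the 31-base stretches of their transcripts, 70.1% for Hspa1a and 68.1% for Hspa1b also occur in another gene, in each case mostly the other copy, so their separate values are uncertain. Their summed level was 34.9, 27.7, 88.8 and 11.5 CPM in new AML and 5.06, 7.89, 5.44 and 4.67 CPM in aggressive AML. Every new AML library thus lay above every aggressive AML library. The difference of the mean log2 values was -2.48 (two-sided exact permutation p = 0.0286, the least that the 70 choices of 4 libraries can give), and -1.98 without new AML replicate 3. In the separate edgeR fits without that library, Hspa1b fell by 2.37 and Hspa1a by 1.57, both still past the threshold, and on the log2(CPM + 1) scale Hspa1a fell by 1.62. The same library was also the highest for immediate early genes, which switch on within minutes of a stimulus. The 21 genes of their list present in the data summed to 1176, 1364, 2349 and 1039 CPM in new AML. In aggressive AML the sums were 1371, 1515, 949 and 1048 CPM. Of the 20 tested genes of this list 2 rose and 4 fell, or 30.0%, against 18.4% of all tested genes called. The immediate early sums of the groups overlap, and their part in the values of Hspa1a and Hspa1b was not tested.

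The stretches that follow are shown because they hold the letters of a heat shock element, the DNA unit that Hsf1 binds, close to the start of inducible members. RefSeq gave a window of 250 bases before to 50 bases after the start site for 64 of the 78 members on GRCm38.p6, and no window for Hspa8, Hspa9, Hspa13, Hsp90aa1, Hsp90ab1, Hsf1, Cct4, Dnajc2, Dnajc5, Dnajc11, Dnajc12, Dnajc18, Dnajc19-ps and Dnajc30. Both strands were searched for a 2-unit form, GAA and TTC with 2 bases of any kind between them, and for a 3-unit form that adds 2 further bases and another GAA, so that every 3-unit match contains a 2-unit match. Capitals mark the matches, and the stretches lie at chr17:34972229-34972284 (Hspa1a) and chr17:34959311-34959366 (Hspa1b), minus strand, at chr5:149636280-149636308 (Hsph1), minus strand, at chr1:55088035-55088100 (Hspe1), plus strand, and at chr5:29735828-29735888 (Dnajb6), plus strand.
Hspa1a and Hspa1b: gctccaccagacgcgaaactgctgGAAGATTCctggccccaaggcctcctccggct
Hsph1: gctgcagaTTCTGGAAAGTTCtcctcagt
Hspe1: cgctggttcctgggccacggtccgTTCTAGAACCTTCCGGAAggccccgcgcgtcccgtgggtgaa
Dnajb6: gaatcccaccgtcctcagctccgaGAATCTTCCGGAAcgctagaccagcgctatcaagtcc

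The 3-unit letters were found in 4 members, Hsph1, Hspd1, Hspe1 and Dnajb6, and in 0.662% of the 27025 genes with a window. Hspd1 and Hspe1 start back to back and share the printed stretch. The 2-unit letters were found in 13 members and in 9.04% of all genes with a window. In the 250 bases before their start sites Hspa1a and Hspa1b are identical at 247 (98.8%), and the match lies at the same place, from base -104. In Hsph1 the matches lie after the annotated start site. Of the 4 holders of the 3-unit letters Hsph1 fell, while Hspd1, Hspe1 and Dnajb6 did not pass the test, with log2 fold changes of -0.07, -0.08 and 0.00.

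**Figure D2:**
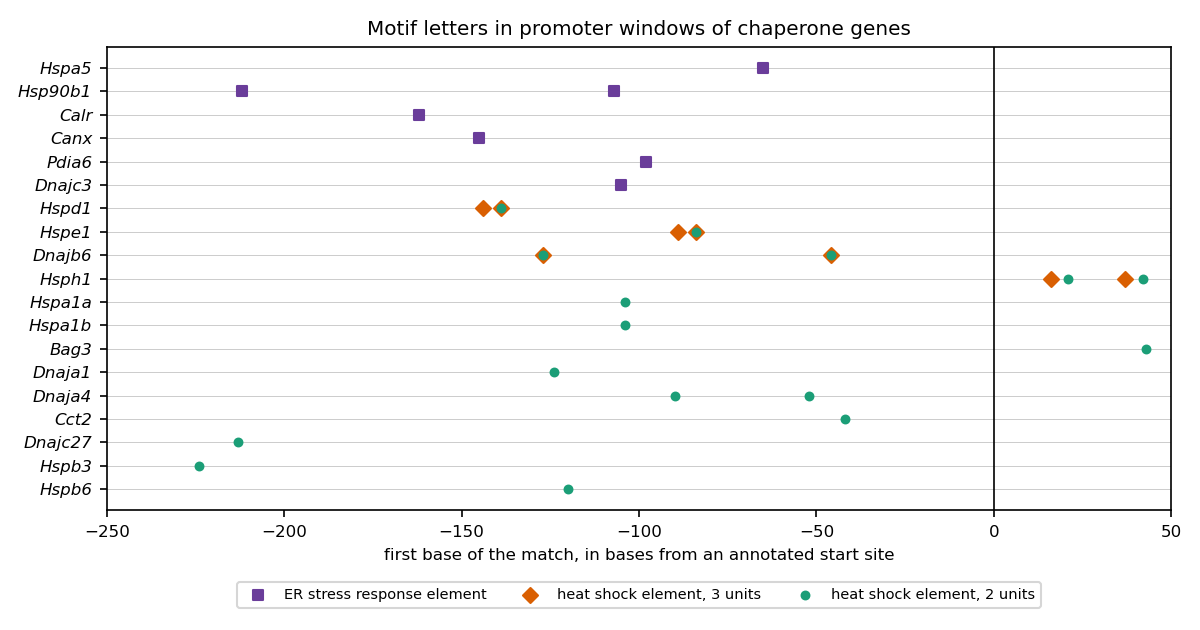
Positions of motif letters in promoter windows of 19 chaperone genes; the horizontal axis gives the first base of each match in bases from an annotated start site, which the vertical line marks, and symbols separate the ER stress response element from the 3-unit and 2-unit heat shock elements. Matches for the ER element lie before the start site in 6 genes, and those of Hsph1 lie after it.

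Hsph1 (chr5:149616843-149636498, minus strand) encodes HSP105, an HSP110 protein that acts as a nucleotide exchange factor of HSP70. It measured 150.2, 126, 183 and 113 CPM in new AML and 51.9, 64.9, 31.8 and 50.5 CPM in aggressive AML. Its lowest new AML library was still above its highest aggressive AML library. Hsph1 fell by 1.52 on the log2 scale (SE 0.18, edgeR adjusted p = 4.05e-05), a 2.86-fold lower level, and 0.0% of its 31-base stretches occur elsewhere. Its relative Hspa4l measured 37.7, 33.7, 45.1 and 38.0 CPM in new AML and 25.4, 29.5, 33.8 and 21.6 CPM in aggressive AML, so aggressive AML replicate 3 lay just inside the range of new AML. Hspa4l fell by 0.49 (SE 0.14, adjusted p = 0.0228), a call that was lost without new AML replicate 3 or aggressive AML replicate 1 or 4 (adjusted p 0.0625 to 0.0641). The third member, Hspa4, had a log2 change of -0.12 (SE 0.09, adjusted p = 0.378).

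Hspa8 (chr9:40801276-40805202, plus strand) encodes HSC70, the HSP70 that cells make at all times. It measured 1236, 1085, 1369 and 1052 CPM in new AML and 740.1, 967, 599 and 653 CPM in aggressive AML. All new AML libraries lay above all aggressive AML libraries. The gene fell by 0.68 on the log2 scale (SE 0.13, adjusted p = 0.00174), with means of 1185 ± 146 CPM (SD, n = 4) in new AML and 739.8 ± 162 CPM (SD, n = 4). No other called member dropped as far in absolute level. Of its 31-base stretches 44.8% occur in another gene, mostly Gm15459, so the part of its reads that could be counted elsewhere is unknown. The other tested HSP70 genes of the cytosol, Hspa14, Hspa1l and Hspa2, had log2 fold changes of -0.04, 0.08 and 0.19, none past the threshold, and Hspa1l shares 71.7% of its 31-base stretches with other genes.

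**Figure D3:**
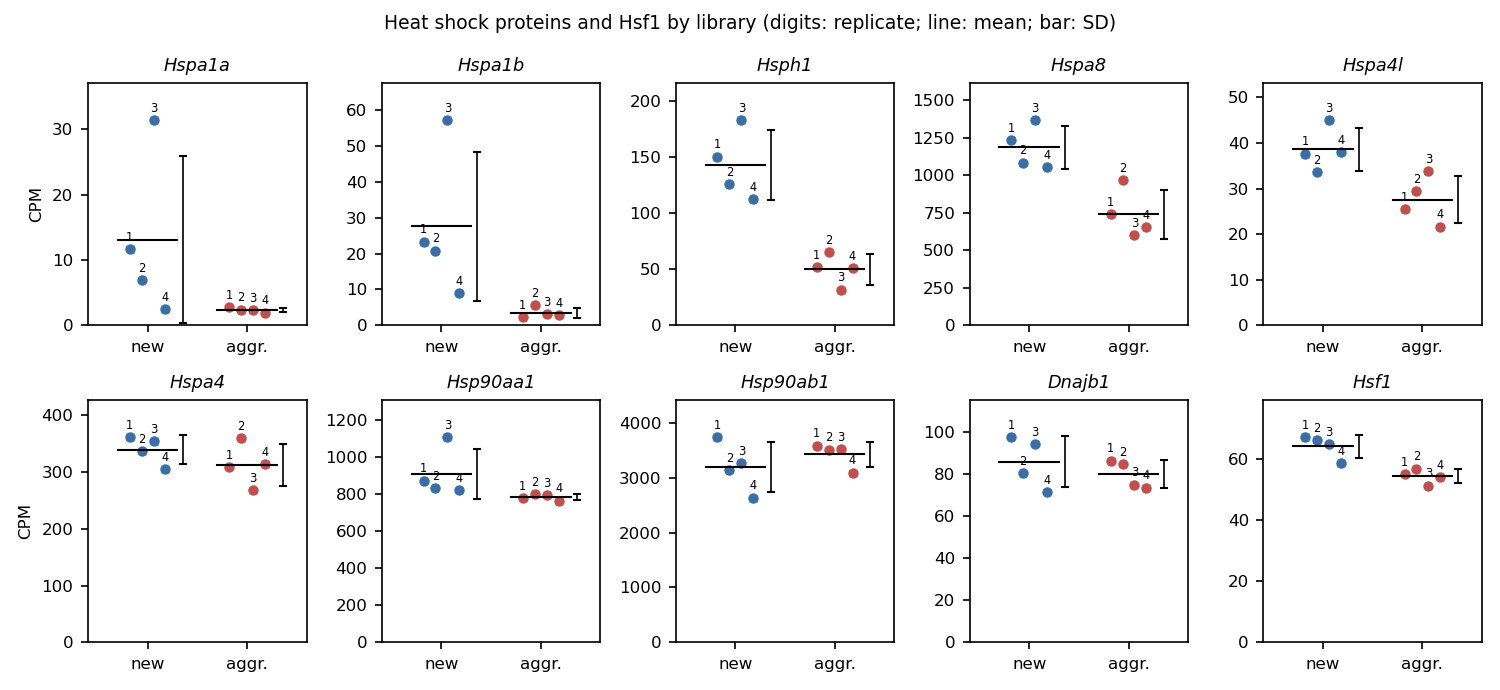
CPM of 10 heat shock genes in each library, with the group on the horizontal axis, digits for the replicate number, lines for the group mean and bars for the SD (n = 4). The new AML points of Hspa1b, Hsph1 and Hspa8 all lie above the aggressive AML points, and new AML replicate 3 is the highest point for Hspa1a, Hspa1b, Hsph1 and Hspa8.

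Neither of the 2 cytosolic HSP90 genes passed the test. Hsp90aa1, the inducible HSP90, measured 873, 834, 1108 and 822 CPM in new AML and 779, 799.8, 796 and 764.5 CPM in aggressive AML. The groups did not overlap, but the log2 change of -0.21 (SE 0.09) did not pass the test (adjusted p = 0.110), and 51.5% of its 31-base stretches occur elsewhere. Hsp90ab1, the constant form, had 3736, 3139, 3259 and 2634 CPM in new AML and 3581, 3511, 3520.0 and 3091 CPM in aggressive AML. These ranges overlap, and the log2 fold change was 0.10 (SE 0.09, adjusted p = 0.485). The ratio of Hsp90aa1 to Hsp90ab1, looked at after the values were seen, was 0.288 ± 0.0473 (SD, n = 4) in new AML and 0.230 ± 0.0126 (SD, n = 4) in aggressive AML, with a two-sided exact permutation p = 0.0571.

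Several other genes that Hsf1 is known to drive did not pass the test. Dnajb1, a J protein partner of inducible HSP70, measured 97.6, 80.6, 94.3 and 71.4 CPM in new AML and 86.5, 84.7, 75.1 and 73.6 CPM in aggressive AML. The groups overlapped, and the log2 fold change was -0.10 (SE 0.10, adjusted p = 0.518). Bag3, which links HSP70 to autophagy, measured 21.1, 20.6, 17.5 and 15.4 CPM against 19.9, 17.9, 17.9 and 13.8 CPM, with a log2 change of -0.10 (SE 0.15, adjusted p = 0.672). So among the members taken here as classical heat shock genes Hspa1a, Hspa1b and Hsph1 fell, while Dnajb1, Bag3, Hsp90aa1, Hspd1 and Hspe1 missed the threshold. The split depends on that choice, which leaves out Hspa8 and Hspa4l, which fell, Dnaja1, which missed the threshold, and Dnajb4, which rose. Whether the changes of the genes that fell differ from those of the genes that missed the threshold was not tested.

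Hsf1 itself measured 67.0, 66.0, 64.8 and 58.5 CPM in new AML and 55.0, 56.8, 51.2 and 54.1 CPM in aggressive AML. The groups did not overlap, yet the log2 change of -0.24 (SE 0.08) missed the threshold (adjusted p = 0.0612). Hsf2, a second heat shock factor, was at 18.6 ± 0.897 CPM (SD, n = 4) in new AML and 22.0 ± 3.42 CPM (SD, n = 4) in aggressive AML, with a log2 change of 0.24 (SE 0.13, adjusted p = 0.231).

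Small heat shock proteins hold unfolded proteins without using ATP, and they were scarce in these cells. Hspb3 measured 1.07 to 2.01 CPM in new AML and 0.589 to 1.14 CPM in aggressive AML, with a log2 change of -1.01 (SE 0.40, adjusted p = 0.0896). Hspb6 lay at 4.72 to 9.03 CPM and 6.999 to 8.08 CPM. Hspb11, which by name falls here but encodes an intraflagellar transport protein, was at most 1.69 CPM in any library. None of the 3 passed the test. A pair of members failed the filter on low counts: Hspa12b, a distant HSP70 relative, had 2, 5, 3 and 2 counts in new AML and 12, 7, 9 and 16 counts in aggressive AML, and the J protein gene Dnaja4 had 5, 6, 17 and 14 counts and 8, 4, 12 and 5 counts. For Hspa12b every aggressive AML count was above every new AML count, with no test.

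J proteins choose the clients of HSP70, and their genes moved in both directions. Of the 31 tested J protein genes that were not grouped with the ER or the mitochondria 4 rose and 3 fell, or 22.6%, against 18.4% of all tested genes, and their median log2 fold change was 0.05. Dnajb4 (chr3:152181580-152210432, minus strand), a class B J protein of the cytosol, held the largest rise among the tested members. It measured 6.57, 5.83, 7.14 and 6.24 CPM in new AML and 13.01, 14.3, 19.7 and 10.7 CPM in aggressive AML. Each aggressive AML library was above each new AML library, and Dnajb4 rose by 1.16 on the log2 scale (SE 0.20, adjusted p = 0.00085), or 2.23-fold.

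Dnajc6 (chr4:101496648-101642799, plus strand) encodes auxilin, which with HSC70 strips clathrin from vesicles. It measured 5.75, 5.23, 6.36 and 7.80 CPM in new AML and 11.3, 13.8, 9.98 and 10.6 CPM in aggressive AML. The groups did not overlap, and Dnajc6 rose by 0.86 (SE 0.19, adjusted p = 0.00479). Dnajc27, a small GTPase with a J domain, measured 22.1, 18.4, 18.6 and 17.1 CPM in new AML and 29.0, 33.7, 22.3 and 24.9 CPM in aggressive AML. New AML replicate 1 and aggressive AML replicate 3 nearly met, at 22.1 and 22.3 CPM. Its rise of 0.53 (SE 0.14, adjusted p = 0.0168) was lost without new AML replicate 2 or 4 or aggressive AML replicate 2 (adjusted p 0.0514 to 0.0659). Dnajc8, a J protein found with the spliceosome, measured 135, 140.2, 145 and 130.0 CPM against 157, 156, 188 and 159 CPM. Here aggressive AML replicate 3 stood above the other libraries and the groups did not overlap. The rise of 0.26 (SE 0.08, adjusted p = 0.0319) was lost without any 1 of new AML replicates 1, 2 and 4 and aggressive AML replicate 3 (adjusted p 0.0693 to 0.0897).

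The J protein genes that fell were Dnajb5, Dnajb14 and Dnajc14. Dnajb5, a class B relative of Dnajb4, measured 4.93, 6.07, 7.14 and 6.02 CPM in new AML and 4.82, 2.59, 2.85 and 4.10 CPM in aggressive AML. The closest libraries were replicate 1 of each group, at 4.93 and 4.82 CPM. Its fall of 0.74 on the log2 scale (SE 0.25) was close to the threshold (adjusted p = 0.049), and it was called in 1 of the 8 fits that left out a library, the one without aggressive AML replicate 1, with adjusted p between 0.0523 and 0.132 in the others. Dnajb14, a J protein anchored in the ER membrane, measured 18.8, 19.3, 16.4 and 28.0 CPM against 14.7, 12.8, 14.5 and 14.9 CPM. New AML replicate 4 was its highest library. The fall of 0.53 (SE 0.16, adjusted p = 0.0324) became 0.35 without that library (adjusted p = 0.124), and the call was also lost without new AML replicate 2 or aggressive AML replicate 1 or 2 (adjusted p 0.0583 to 0.0859).

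Dnajc14, another J protein of the ER membrane, measured 70.3, 77.2, 80.9 and 81.9 CPM in new AML and 68.7, 59.6, 59.6 and 62.3 CPM in aggressive AML. The ranges came close at replicate 1 of each group without overlapping. Its fall of 0.31 (SE 0.09, adjusted p = 0.0206) was lost without new AML replicate 2 or 4 or aggressive AML replicate 2 (adjusted p 0.0557 to 0.0649), and its exons overlap those of Ormdl2, Sarnp and Tmem198b, so reads of these genes may be mixed. Dnaja1 and Dnajc5 were picked out after their values were seen, because their groups did not overlap. Dnaja1, a class A J protein, had 44.4 to 57.1 CPM in new AML and 35.1 to 44.0 CPM in aggressive AML (log2 fold change -0.32, SE 0.11, adjusted p = 0.0606). Dnajc5, the cysteine string protein of secretory vesicles, had 148 to 167.1 CPM and 167.4 to 178 CPM (0.14, SE 0.07, adjusted p = 0.166). The remaining J protein genes had log2 fold changes from -0.41 (Dnajc28) to 0.37 (Dnajc17), and Dnajc19-ps among them is a pseudogene that shares 73.2% of its 31-base stretches with other genes, mostly Dnajc19.

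**Figure D4:**
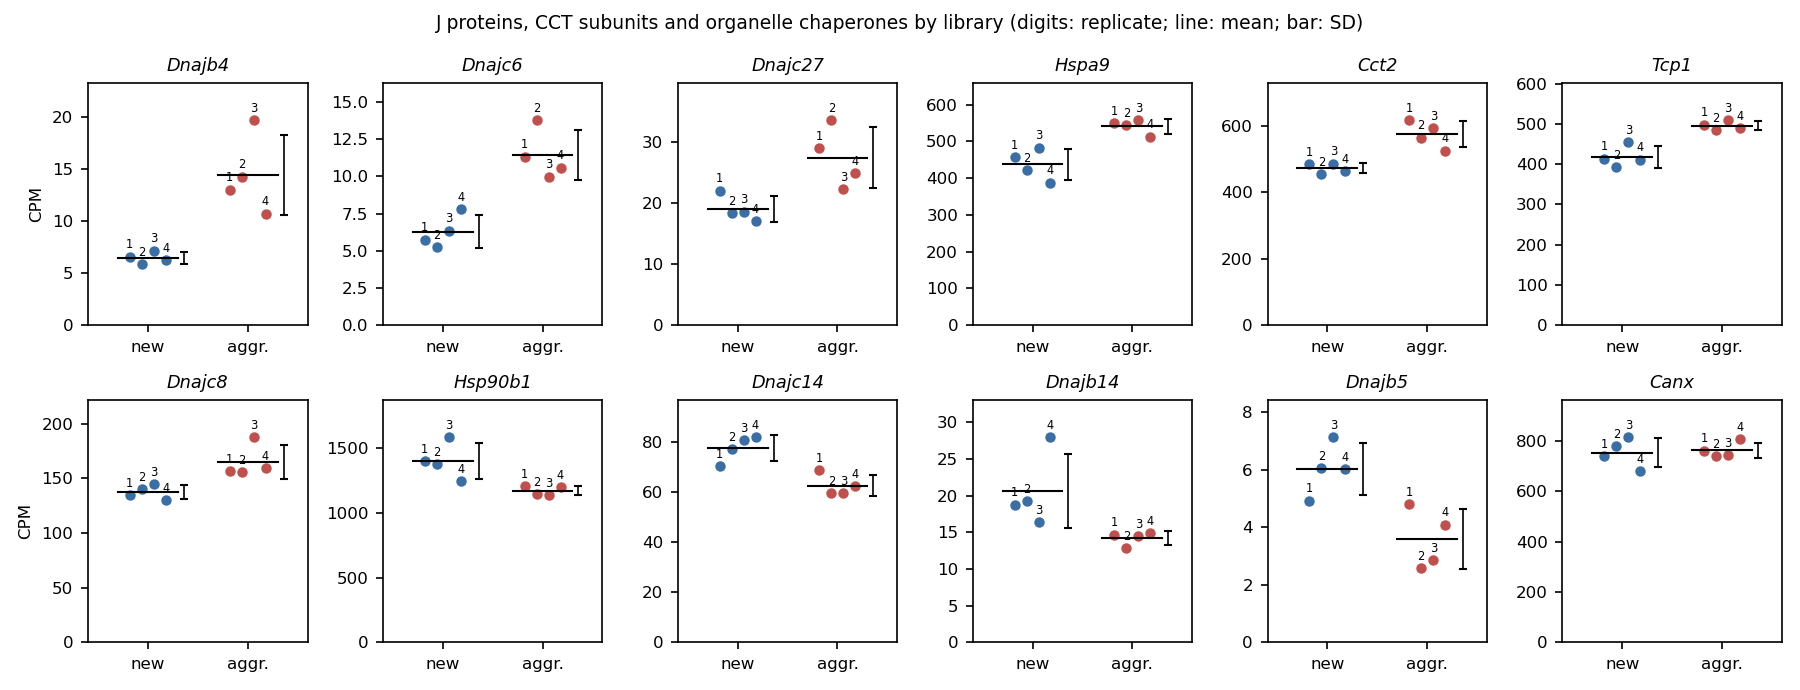
CPM of 12 further genes in each library, with the group on the horizontal axis, digits for the replicate number, lines for the group mean and bars for the SD (n = 4); Tcp1 is shown beside the CCT subunit Cct2. The groups are apart in each panel but that of Canx, by a wide margin in Dnajb4 and by little in Dnajb5 and Dnajc27.

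The CCT chaperonin is a barrel of paired rings that folds actin and tubulin. All 7 subunits named Cct had a log2 fold change above 0, from 0.05 (Cct8) to 0.28 (Cct2), with a median of 0.13, and this direction held in every alternative fit, while only Cct2 passed the test. Cct2 (chr10:117050997-117063852, minus strand) measured 484, 455, 485 and 462 CPM in new AML and 617, 563, 592 and 524 CPM in aggressive AML. Its new AML libraries lay close together and below all aggressive AML libraries. Cct2 rose by 0.28 (SE 0.07, adjusted p = 0.0111), or 1.22-fold, and stayed called in all 8 fits that left out a library.

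The other CCT subunits, Cct3, Cct4, Cct5, Cct6a, Cct7 and Cct8, had adjusted p between 0.184 and 0.707. For each of these 6, new AML replicate 3 was the highest library of its group, as for Cct5 with 525.0 CPM against 445 to 448 CPM in the other new AML libraries. Without that library Cct6a rose by 0.22 (adjusted p = 0.0443) and Cct7 by 0.26 (adjusted p = 0.0463). Tcp1, the eighth subunit, which the name rule does not take, measured 414, 392, 455 and 411 CPM in new AML and 498, 485, 509.8 and 489 CPM in aggressive AML. It rose by 0.25 (SE 0.07, adjusted p = 0.0205), with no overlap between groups. The summed level of the 7 named subunits was 2782 ± 237 CPM (SD, n = 4) in new AML and 3074 ± 129.9 CPM (SD, n = 4) in aggressive AML.

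Mitochondrial chaperones draw proteins through the inner membrane and fold them in the matrix. Of 6 tested genes 1 rose, or 16.7%, against 18.4% of all tested genes called in either direction and 8.15% called higher. Hspa9, which encodes mortalin, the HSP70 of the matrix, measured 457, 421, 483 and 387 CPM in new AML and 549, 544, 558 and 512.5 CPM in aggressive AML. The groups did not overlap, and Hspa9 rose by 0.31 (SE 0.08, adjusted p = 0.0117), or 1.24-fold, again in all 8 fits that left out a library. Its matrix partners, the chaperonin Hspd1 and its lid Hspe1, did not pass the test. Hspd1 measured 367 ± 53.7 CPM (SD, n = 4) in new AML and 349 ± 25.7 CPM (SD, n = 4) in aggressive AML, and Hspe1 93.3 ± 18.0 CPM (SD, n = 4) and 88.0 ± 5.83 CPM (SD, n = 4). New AML replicate 3 was the highest library for both, and without it their small negative changes turned to 0.02. Their transcripts share 53.1% and 30.5% of their 31-base stretches with other genes. Dnajc19, a J protein of the import motor that was picked out after its values were seen, had 2.98 to 4.46 CPM in new AML and 4.82 to 5.18 CPM in aggressive AML (log2 fold change 0.50, SE 0.22, adjusted p = 0.130). Its exons overlap those of Fxr1 on the opposite strand. The pseudogene Dnajc19-ps shares 73.2% of its 31-base stretches with other genes, mostly Dnajc19. That pseudogene had 28.65 to 39.6 CPM in new AML and 38.7 to 45.07 CPM in aggressive AML. Reads of Dnajc19 may be counted there, so the level of Dnajc19 is uncertain.

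The ER set folds secreted and membrane proteins, with Hspa5 (BiP) as its HSP70, Hsp90b1 (GRP94) as its HSP90, the lectins Calr and Canx for glycoproteins, and the disulfide isomerases. Of the 8 genes for chaperones and J proteins grouped with the ER 1 fell, or 12.5%. Of all tested genes 18.4% were called in either direction and 10.2% lower. The median log2 fold change of these 8 ER genes was -0.08 (Dnajb14 and Dnajc14 of the ER membrane were counted with the J protein classes). None of the 2 lectin and 5 disulfide isomerase genes passed the test. Hsp90b1 (chr10:86690841-86705444, minus strand) measured 1396, 1374, 1583 and 1246 CPM in new AML and 1204, 1144, 1135 and 1198 CPM in aggressive AML. The groups did not overlap, with replicate 3 again the highest new AML library. Its fall of 0.26 (SE 0.08, adjusted p = 0.0286), or 1.20-fold, was lost without any 1 of new AML replicates 1, 2 and 3 and aggressive AML replicates 2 and 3 (adjusted p 0.0533 to 0.0732). Its exons overlap those of 1810014B01Rik on the opposite strand and of Gm15344 and Gm25745 on the same strand.

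The other ER genes changed little. Hspa5 measured 1215, 1296, 1668 and 1183 CPM in new AML and 1371, 1227, 1196 and 1267 CPM in aggressive AML. New AML replicate 3 stood above the rest, the other libraries of both groups overlapped, and the log2 fold change was -0.08 (SE 0.10, adjusted p = 0.597). Calr was at 2349 ± 186 CPM (SD, n = 4) in new AML and 2152 ± 169 CPM (SD, n = 4) in aggressive AML (adjusted p = 0.286), and Canx at 754 ± 57.5 CPM (SD, n = 4) and 763 ± 30.3 CPM (SD, n = 4). P4hb, the first disulfide isomerase described, had a log2 change of -0.01 (SE 0.07), and Pdia3, Pdia4 and Pdia6 had -0.10, -0.23 and -0.09, of which Pdia4 had the lowest adjusted p, 0.0823.

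The next stretches are shown because the letters of the ER stress response element, CCAAT and CCACG with 9 bases of any kind between them, through which the unfolded protein response acts on ER chaperone genes, were found in members of the ER set. Searched on both strands, they were present in 6 of the 64 members with a window, Hspa5, Hsp90b1, Calr, Canx, Pdia6 and Dnajc3, and in 0.137% of all 27025 genes with one. Capitals mark the matches, with the letters of Calr and the second match of Hsp90b1 on the other strand. The stretches lie on GRCm38.p6 at chr2:34772001-34772067 (Hspa5), plus strand, chr10:86705509-86705680 (Hsp90b1), minus strand, chr8:84847051-84847117 (Calr), minus strand, chr11:50325776-50325842 (Canx), minus strand, chr12:17266467-17266533 (Pdia6), plus strand, and chr14:118937803-118937869 (Dnajc3), plus strand.
Hspa5: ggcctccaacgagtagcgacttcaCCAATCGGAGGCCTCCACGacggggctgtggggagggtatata
Hsp90b1: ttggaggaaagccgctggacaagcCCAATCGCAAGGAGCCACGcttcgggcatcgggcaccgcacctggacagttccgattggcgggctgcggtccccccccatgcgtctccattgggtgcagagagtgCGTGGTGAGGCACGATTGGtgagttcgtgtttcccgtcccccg
Calr: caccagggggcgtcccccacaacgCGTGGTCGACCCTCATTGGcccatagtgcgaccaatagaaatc
Canx: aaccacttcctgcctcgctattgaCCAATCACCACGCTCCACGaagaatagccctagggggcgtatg
Pdia6: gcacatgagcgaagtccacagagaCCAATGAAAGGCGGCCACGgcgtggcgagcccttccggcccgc
Dnajc3: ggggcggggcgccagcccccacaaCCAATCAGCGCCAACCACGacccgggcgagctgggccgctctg

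Hsp90b1, the holder with matches at 2 places, was the one called lower, and Dnajc3 had a log2 change of -0.12 (SE 0.08, adjusted p = 0.324). A link between the matches and the changes was not tested. Further genes of the same pathways, listed by role, were read from the same fit. Of 40 tested genes in the cochaperone list 1 rose and 2 fell. The gene that rose was Tcp1, the CCT subunit described above and no cochaperone, so no cochaperone was called higher. Fkbp5, a peptidyl-prolyl isomerase that binds HSP90, fell by 0.47 (SE 0.12, adjusted p = 0.0143), and Chordc1, an HSP90 cochaperone, fell by 0.54 (SE 0.13, adjusted p = 0.011), with means of 128 ± 18.4 CPM (SD, n = 4) in new AML and 87.7 ± 17.8 CPM (SD, n = 4). The share called in this list, 7.5% with Tcp1 included, was lower than the 18.4% of all tested genes, but was not set against it by a test.

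Among 35 tested genes of ER folding and quality control 3 rose and 3 fell, or 17.1%, against 18.4% of all tested genes. Ero1l, the oxidase that recharges disulfide isomerases, rose by 0.49 (SE 0.07, adjusted p = 0.000215), with means of 326 ± 13.8 CPM (SD, n = 4) in new AML and 457 ± 27.5 CPM (SD, n = 4), and the sulfhydryl oxidase Qsox1 and Vimp (selenoprotein S) rose by 0.30 and 0.25. Those that fell were Sdf2l1 and Creld2, which work beside BiP, and the ubiquitin ligase Syvn1, by 0.48, 0.46 and 0.49. Of all tested genes 18.4% were called in either direction and 10.2% lower, shares against which the next list was not tested. Of 13 tested regulators of the unfolded protein response 3 fell and none rose, or 23.1%. They were the stress sensor Ern1 (IRE1), which fell by 0.39 (SE 0.13, adjusted p = 0.0422), and the membrane-bound factors Creb3 and Creb3l2, which fell by 0.46 and 0.68. Without any 1 of new AML replicate 2 and aggressive AML replicates 2 and 3, this list held 1 called gene, and without new AML replicate 1 the ER folding list held 3.

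Chaperones differed far more in level than between groups. Per kilobase of the main annotated transcript, Hsp90ab1 had the highest level, 1267 ± 180 CPM per kb (SD, n = 4) in new AML and 1359 ± 89.5 CPM per kb (SD, n = 4) in aggressive AML, followed by Calr at 1076 ± 85.4 and 985 ± 77.2 CPM per kb (SD, n = 4 each). A step down came Hsp90b1 at 495 and 414 CPM per kb, P4hb at 408 and 405 and Hspa8 at 495 and 309, in new and aggressive AML. In new AML Hsp90b1 and Hspa8, with SDs of 49.1 and 61.2 CPM per kb, did not differ beyond their spread, and P4hb, with an SD of 27.8 CPM per kb, lay below both. In aggressive AML Hsp90b1 and P4hb did not differ beyond their SDs of 12.7 and 12.9 CPM per kb, and the mean of Hspa8, with an SD of 67.8 CPM per kb, was lower and beside that of Hspa5 (345 ± 20.8 CPM per kb). Hspa1b and Hspa1a, which had the largest falls, went from 9.85 to 1.22 and from 4.42 to 0.792 CPM per kb. In aggressive AML both were among the least abundant members. Hsph1, with the next largest fall, went from 37.6 to 13.1 CPM per kb.

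**Figure D5:**
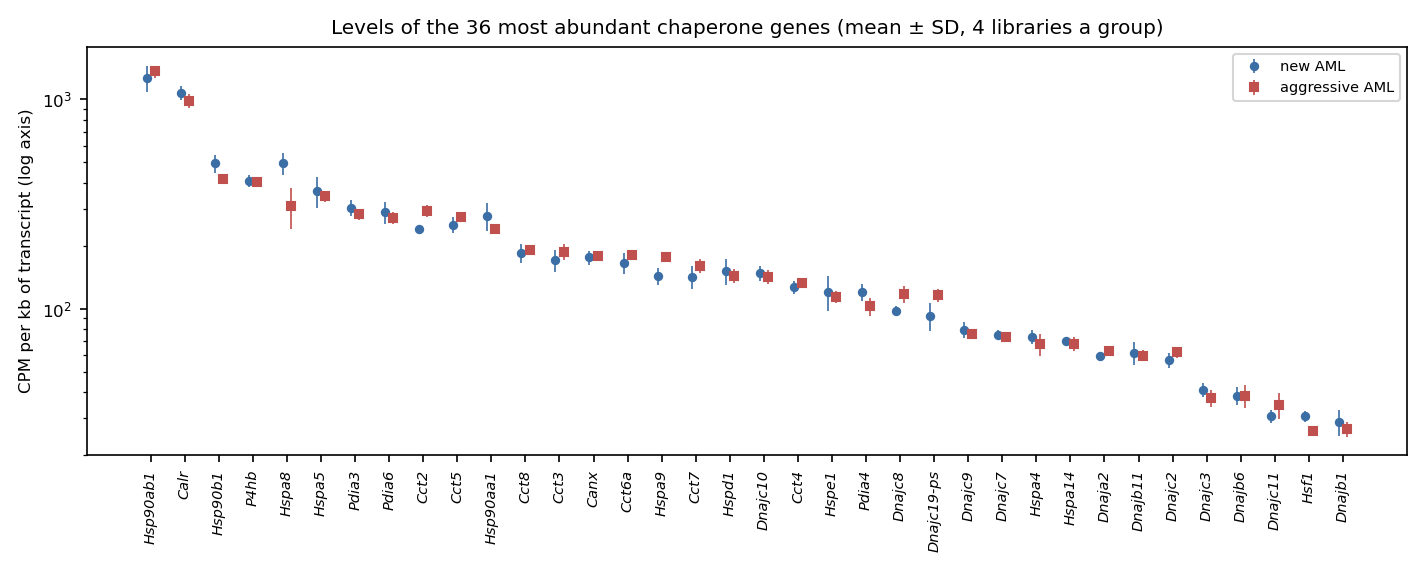
Mean level of the 36 most abundant chaperone genes in CPM per kilobase of transcript on a log axis, with bars for the SD over 4 libraries, for new AML (circles) and aggressive AML (squares). Hsp90ab1 and Calr stand near 1000 CPM per kb, and Hspa8 shows the widest gap between the groups among the first 10 genes.

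The libraries of a group were not alike in these genes. New AML replicate 3 had the highest value of its group in 41 of the 76 tested members, and replicate 4 the lowest in 46. In aggressive AML the highest values were spread more evenly, with 29 members highest in replicate 1, 23 in replicate 2, 14 in replicate 3 and 10 in replicate 4. The summed level of all members was accordingly 23650 CPM in new AML replicate 3 and 19330 CPM in replicate 4, and these values enclose the 19950 to 21630 CPM of the aggressive AML libraries. Without new AML replicate 3, 6 members were called lower and 9 higher. Hspa1a, Hspa1b, Hsph1, Hspa8, Cct2, Hspa9, Dnajb4 and Dnajc6 were called in each of the 8 fits that left out a library.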

How the data were processed

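RNA-seq counts of 8 samples were used, 4 new AML and 4 aggressive AML, grouped by the labels. The authors purified polyadenylated RNA from GFP+ cells, aligned paired reads to mm10 with HISAT2, counted them with Rsubread and removed genes under 1 CPM. The gene annotation and strand setting of the counting are not given in the sources used here, so genes that overlap on either strand are uncertain. Although the name of the deposited table says CPM, it holds whole numbers whose totals differ between libraries, which were taken as raw read counts.

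Tests covered the 12494 genes that reached 1 CPM in 4 or more libraries (329 did not) and were made with edgeR 4.0.16 in R 4.3.3, by a quasi-likelihood test with TMM scaling, group as the term, all 8 libraries, and Benjamini-Hochberg adjustment over all tested genes. CPM values include the TMM factors (0.986 to 1.01), and 1 count was worth 0.103 to 0.130 CPM. Intervals of 3 counts cover counting error only. The common biological coefficient of variation was 0.118, and library pairs of a group differed beyond sampling noise. The alternatives were DESeq2 1.42.0, relative log expression scaling, no filter, limma 3.58.1 with trend on log2(CPM + 1) (the study used limma, with other settings not stated), the replicate number as a block, and each library left out in turn.

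The members and gene lists were chosen with earlier results of these data known. Named were the called members, the inducible and abundant chaperones, the members below the filter and the called genes of the further lists. Other names were added with their values in view, or to complete a role group. Coordinates and promoter windows are from RefSeq (GRCm38.p6, all 78 members matched), and shared 31-base stretches are from GENCODE transcripts of that build.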

Additional observations from a re-analysis of the deposited data

Results flagged for a closer look

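In 6 of 72 groups of 4 libraries examined (36 members in both groups), 1 library lay far from the others of its group, where chance gives about 3.6. In new AML, P4hb was at 1048 CPM in replicate 4 against 1198 to 1219 CPM in the others, and Cct5 at 525.0 CPM in replicate 3 against 445 to 448 CPM. In aggressive AML, replicate 1 was apart for P4hb (1213 CPM against 1136 to 1141 CPM) and for Hspe1 (96.8 CPM against 84.8 to 85.4 CPM). Hsp90ab1 was at 3091 CPM in aggressive AML replicate 4 against 3511 to 3581 CPM, and Dnajc8 at 188 CPM in aggressive AML replicate 3 against 156 to 159 CPM.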

How the results depend on the processing

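The number of members called lower was 8 or 9 and the number called higher 6 or 7 in the fits with another test, scaling, filter or block, and 5 to 7 and 4 to 9 when a library was left out. The median log2 fold change of the members lay between -0.049 and 0.007 in the fits without a library. Called genes numbered 5 with DESeq2 and 1 to 5 without a library in the cochaperone list. Without a library, called genes went down to 3 in the ER folding list and to 1 in the unfolded protein response list. Over all genes, between 1534 and 2381 were called without a library and 2538 with DESeq2. The difference of the summed level of Hspa1a and Hspa1b ranged from -2.97 to -1.98, with an exact permutation p = 0.0571 each time, the least that 3 against 4 libraries allow. The log2 fold changes of some uncalled members changed sign. Over the fits without a library, Hspd1 ranged from -0.15 to 0.018, Hspe1 from -0.198 to 0.023 and Hspa5 from -0.139 to 0.04, each above 0 without new AML replicate 3. Canx ranged from -0.029 to 0.056 and P4hb from -0.06 to 0.01. The cause was not tested.

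The labels do not say whether replicate numbers pair the samples. Same-numbered libraries correlated at 0.0967, -0.0399, -0.0654 and 0.204 in their deviations from the group means, which cannot settle whether they are paired. With the replicate block, 2367 genes were called over all genes, 6 members were higher and 8 lower, and Dnajb5 was lost (adjusted p = 0.0712). Not every library correlated best with its own number. Depth limits the low members: at 0.103 to 0.130 CPM per count, Hspb11, Hspa12b and Dnaja4 rest on few counts per library.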
